A study of Caenorhabditis elegans with 6 samples.

Results

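The regions described here are the arms of Caenorhabditis elegans autosomes that were taken to carry the meiotic pairing centre. They are the left arm of chromosomes II, III and V and the right arm of chromosome IV. Each chromosome was divided into 3 parts with equal numbers of 100 kb bins, and the outer part on the side of the pairing centre was taken. This gave 226 bins of 1006 in the deposited tables, with 51 on II, 46 on III, 59 on IV and 70 on V. The opposite arms of the same chromosomes hold 225 bins and their centres 225 bins. The choice used only the position of a bin on its chromosome and no measured value. The deposited tables mark no pairing centre, so which arm carries it was taken as given and could not be checked in these data. Below, the arm with the pairing centre means the arm so assigned, and the opposite arm means the other arm of that chromosome.

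A pairing centre is a region near one end of a worm chromosome where homologous chromosomes recognise each other in meiosis. It is bound by zinc finger proteins of the HIM-8 and ZIM family, which link it through the nuclear envelope to the cytoskeleton while homologues pair. Autosomal arms in general are richer in repeats and poorer in highly expressed genes than centres, and in worm somatic cells they are known to lie at the nuclear lamina, the protein layer under the inner nuclear membrane. L4 larvae contain both somatic tissue and a germ line in which cells enter meiosis.

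The study used DamID, in which a protein is fused to the bacterial DNA adenine methyltransferase Dam, so that GATC sequences near the protein become methylated, are cut with DpnI, amplified and sequenced. The labels describe 6 samples of whole L4 animals, with 20 animals per sample lysed in tubes of 10 worms. They comprise males and hermaphrodites that express Dam fused to mel-28 (whose protein sits at the nuclear pore), males and hermaphrodites with Dam joined to lmn-1 (the lamin of the worm), and males and hermaphrodites with Dam fused to gfp, which has no chromatin target of its own. All 6 samples expressed their fusion from the hsp-16.41 promoter of a heat-shock gene without induction, and the animals were grown at 25 °C on E. coli. A ratio from whole animals averages over all tissues, and more cells with contact at a locus cannot be told apart from more contact per cell.

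The measurement is a linear ratio per bin, which the authors deposited for 2 strain codes, PMW123 and PMW179, each over PMW124 of the same sex. The labels do not tie these codes to the constructs, so the strains are named by code and no value below is assigned to lamin, pore or gfp. Each bin has 1 value for a strain in a sex, without read depth or replicates. The deposited read counts, whose columns carry the same codes, match no labelled sample and were not used, and no test was made. Every difference below is a description, and spread is given as the range or quartiles over bins or over the 4 chromosomes, which come from the same animals and are not replicates. Within a sex both strains share the PMW124 denominator. Levels are medians of log2 ratios over bins relative to the median of all 827 autosomal bins in the same column. Those autosomal medians were ratios of 1.09 for PMW123 in males, 1.05 for PMW123 in hermaphrodites, 0.980 for PMW179 in males and 1.20 for PMW179 in hermaphrodites.

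Of the 226 bins, 225 had a finite ratio above 0 for PMW123 in males and 219 in hermaphrodites, and 224 had one for PMW179 in males and 219 in hermaphrodites. The bins left out in hermaphrodites lay on III (4 bins), V (2 bins) and IV (1 bin). All but 1 of them were listed as infinite in hermaphrodites for both strains. The remaining one, at chr V 2400001 to 2500000, had no value in any column. Positions are consecutive 100 kb steps from the chromosome start in ce10, the build named in the submitters' processing notes, and the last bin of a chromosome may be shorter than that.

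PMW123 was high on these arms in both sexes. The median ratio over the arm bins was 1.43 in males and 1.34 in hermaphrodites, with quartiles of 1.02 and 2.08 in males and of 0.944 and 2.08 in hermaphrodites. Relative to the autosomal median this was a level of 0.38 (log2, 1.30-fold) in males and 0.35 (1.28-fold) in hermaphrodites. In males 163 of 225 arm bins (72.4%) lay above the autosomal median, against 46.3% of all nuclear bins. In hermaphrodites 147 of 219 (67.1%) did, against 46.4% of all nuclear bins. At least 2-fold above the autosomal median were 52 arm bins in males (23.1%, against 13.1% of all nuclear bins) and 54 in hermaphrodites (24.7%, against 14.5%). At least 2-fold below it were 16 bins in males (7.11%, against 23.7%) and 11 in hermaphrodites (5.02%, against 14.6%). These nuclear shares include X. Of autosomal bins alone, 14.8% in males and 16.7% in hermaphrodites were at least 2-fold above the autosomal median. At least 2-fold below it were 20.7% of autosomal bins in males and 14.2% in hermaphrodites.

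The 4 arms were not alike for PMW123. The left arm of V had ratios from 0.347 to 4.15 with a median of 1.60 in males, and from 0.381 to 4.69 with a median of 1.70 in hermaphrodites. Its level relative to the autosomes was 0.55 in males and 0.70 in hermaphrodites, the highest of the 4 arms in hermaphrodites. The right arm of IV had ratios from 0.402 to 7.47 with a median of 1.62 in males, and from 0.489 to 5.21 with a median of 1.27 in hermaphrodites. It was the highest of the 4 in males, with a level of 0.57, and lay at 0.28 in hermaphrodites, where the outer 1 in 4 parts of the chromosome had 0.63.

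The left arm of II had PMW123 ratios from 0.104 to 8.22 with a median of 1.53 in males, and from 0.483 to 5.40 with a median of 1.34 in hermaphrodites. Its level was 0.48 in males and 0.35 in hermaphrodites. The left arm of III was the exception, with ratios from 0.110 to 3.21 and a median of 1.06 in males, and from 0.232 to 2.74 and a median of 1.12 in hermaphrodites. Its level was -0.046 in males and 0.096 in hermaphrodites, close to the autosomal median on both counts. The share of bins above the autosomal median was 50.0% on III in males, against 76.8% to 80.4% on the other 3 arms. In hermaphrodites it was 59.5% on III and from 66.7% to 72.1% on the others. The ranges of single bins overlapped between all 4 arms in both sexes.

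**Figure D1:**
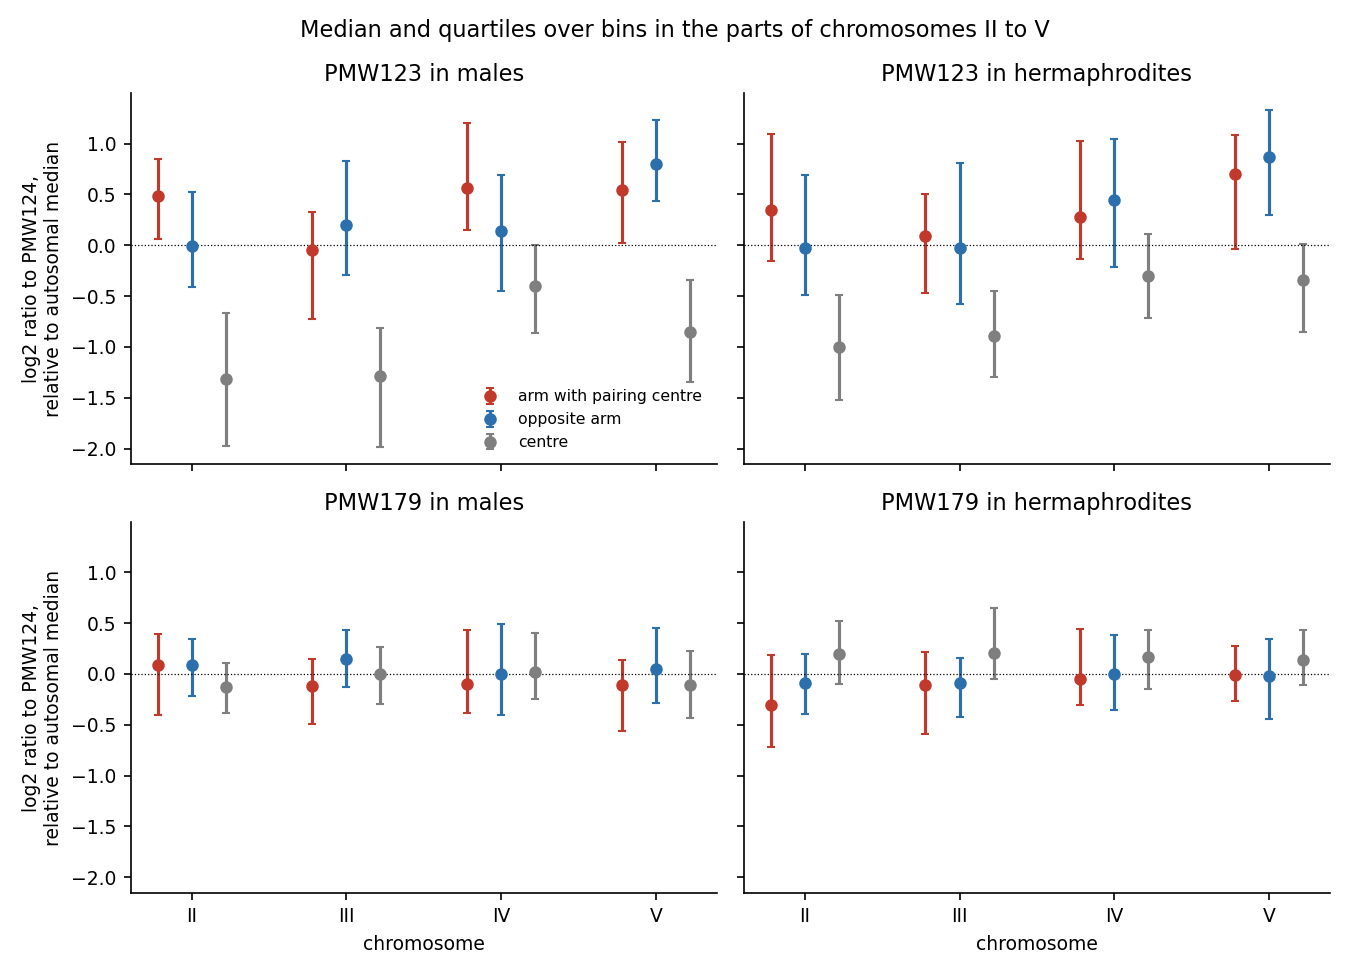
Medians (points) and quartiles (bars) of the log2 ratio to PMW124 relative to the autosomal median, over the bins of the arm with the pairing centre, the opposite arm and the centre of chromosomes II to V, for each strain code and sex. For PMW123 both arms lie above the centre on all 4 chromosomes. The arm assigned the pairing centre exceeds the opposite one only on II and IV in males and II and III in hermaphrodites.

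Set against the centres of the same chromosomes, the arms with the pairing centre had higher PMW123 medians on 4 of 4 chromosomes in both sexes. The difference averaged 1.35 (log2, 2.55-fold) over the 4 chromosomes in males and 0.99 (1.99-fold) in hermaphrodites. It was largest on II, with 1.80 in males and 1.35 in hermaphrodites, and smallest on IV, with 0.97 in males and 0.58 in hermaphrodites. Chromosome III, whose arm was near the autosomal level, still had a difference of 1.24 in males and 0.99 in hermaphrodites, since its centre lay at -1.29 in males and -0.89 in hermaphrodites.

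Set against the opposite arms, the arms with the pairing centre, as assigned here, showed no common direction for PMW123. A chromosome whose pairing centre lay on the other arm would have the opposite sign. The mean difference over the 4 chromosomes was 0.11 (log2) in males and 0.041 in hermaphrodites, with 2 chromosomes above 0 and 2 below in each sex. Without chromosome II the mean was -0.024 in males and -0.070 in hermaphrodites, so its sign rests on that chromosome. Without chromosome IV it was -0.0013 in males. On II the left arm exceeded the right arm by 0.49 in males and 0.38 in hermaphrodites, with median ratios of 1.53 on the left and 1.09 on the right in males, and of 1.34 on the left and 1.03 on the right in hermaphrodites. On V the left arm was lower than the right arm, by -0.25 in males and -0.17 in hermaphrodites. Chromosomes III and IV changed sign between the sexes, with -0.25 and 0.43 in males and 0.12 and -0.16 in hermaphrodites. Both hermaphrodite signs depended on the processing. With arms of 1 in 4 parts IV had 0.14 in hermaphrodites, and with means over bins III was below 0.

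Counts of bins far above the autosomal median were also close between the arms when pooled. At least 2-fold above the autosomal median for PMW123 were 23.1% of the bins of arms with the pairing centre and 21.9% of those of the opposite arms in males. In hermaphrodites these shares were 24.7% on the arms with the pairing centre and 25.2% on the opposite arms. In the centres they were 1.78% in males and 4.46% in hermaphrodites. Over all nuclear bins they were 13.1% in males and 14.5% in hermaphrodites, and over autosomal bins 14.8% and 16.7%. On II, III, IV and V in turn, male shares were 19.6%, 6.52%, 33.9% and 27.5% on the arms with the pairing centre. On the opposite arms they were 9.80%, 10.9%, 19.0% and 40.6%. Hermaphrodite shares in the same order were 27.5%, 9.52%, 25.9% and 30.9%, against 10%, 17.4%, 27.6% and 39.7% on the opposite arms. On chromosome II the arm with the pairing centre had 10 such bins in males and 14 in hermaphrodites, whereas the opposite arm had 5 in each sex. On V the order was the other way, with 19 bins in males and 21 in hermaphrodites on the arm with the pairing centre, against 28 in males and 27 in hermaphrodites on the opposite arm. On III the arm with the pairing centre had 3 such bins in males and 4 of 42 in hermaphrodites, against 5 in males and 8 of 46 in hermaphrodites on the opposite arm, so that in hermaphrodites the counts ran against the medians. On IV there were 20 in males and 15 in hermaphrodites on the arm with the pairing centre, against 11 in males and 16 in hermaphrodites on the opposite arm.

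Within the arms PMW123 was high near the chromosome end and declined towards the centre. In blocks of 1 Mb counted from the end, pooled over the 4 chromosomes, the male level was 0.69 in the outermost block (35 of 40 bins above the autosomal median), then 0.50, 0.49 and 0.52 in the next 3 blocks. It was 0.15 between 4 and 5 Mb and -0.036 between 5 and 6 Mb. In that last block 3 chromosomes still contribute 20 bins, of which 9 are on IV and 10 on V. In hermaphrodites the same blocks had 0.64 (34 of 39 bins), 0.24, 0.64, 0.50, 0.041 and -0.15. The pooled level thus stayed at 0.24 or more for 4 Mb from the end in both sexes. Between 4 and 5 Mb it was less far above the autosomal median, and beyond 5 Mb it was near or below it. The chromosomes in the pool change with distance. Between 5 and 6 Mb in hermaphrodites IV had -0.36 and V had 0.72.

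The decline began at different distances. On III the PMW123 level was already below the autosomal median between 3 and 4 Mb, with -0.67 in males and -0.61 in hermaphrodites, and the innermost block from 4 Mb on, which holds 6 bins, was at -1.63 in males and -0.81 in hermaphrodites. On II the level between 3 and 4 Mb was the highest of that arm in both sexes, with 0.88 in males and 1.19 in hermaphrodites, and it was 0.05 in males and -0.28 in hermaphrodites between 4 and 5 Mb. On V it stayed above the autosomal median through 6 Mb, with 0.11 in males and 0.72 in hermaphrodites between 5 and 6 Mb, and was at -0.22 in males and -0.16 in hermaphrodites in the last block. On IV the outermost block had 1.05 in males and 1.07 in hermaphrodites, and the highest block in males was that between 2 and 3 Mb, with 1.42. Blocks of single chromosomes hold at most 10 bins.

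**Figure D2:**
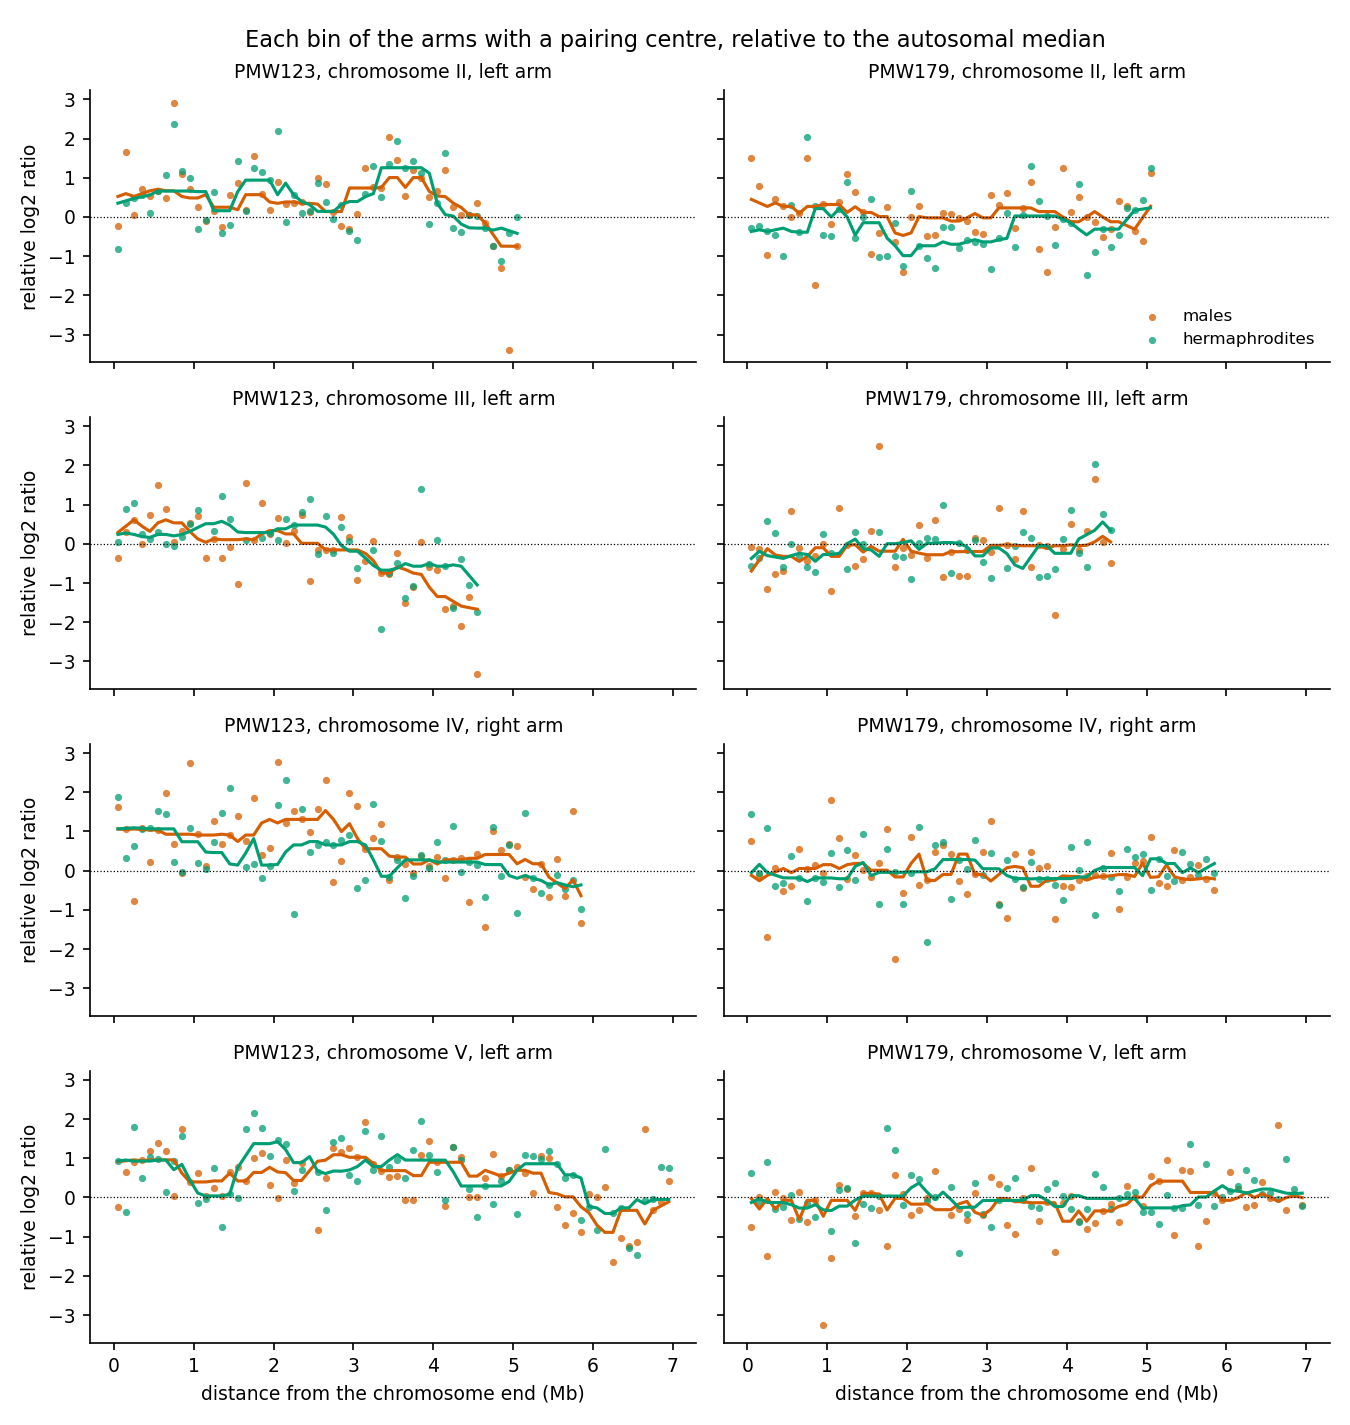
Log2 ratio of each bin of the arms with a pairing centre, relative to the autosomal median, against distance from the chromosome end in Mb, for PMW123 (left) and PMW179 (right) in males and hermaphrodites; lines are running medians of 9 bins. PMW123 lies above 0 over most of the outer 4 Mb and turns down towards the centre, earliest on III, while PMW179 in hermaphrodites lies mostly below 0 on II.

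The same profile over whole chromosomes was high at both ends. With each chromosome cut into 10 parts from the pairing centre end, the PMW123 level in males was 0.64, 0.58 and 0.27 in the 3 outermost parts and was lowest, at -1.19, in the sixth. At the opposite end the last 3 parts had 0.06, 0.70 and 0.40. In hermaphrodites the outermost parts on the pairing centre side had 0.60, 0.64 and 0.27, the sixth part -0.89, and the last 3 parts 0.14, 0.60 and 0.69.

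**Figure D3:**
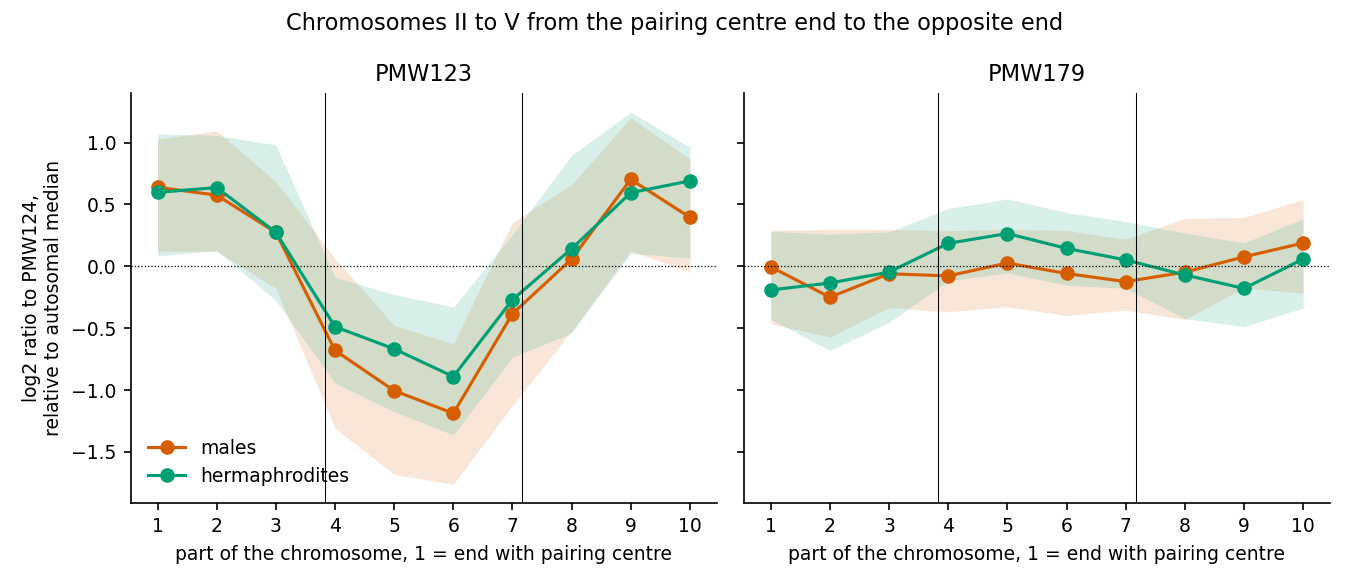
Median log2 ratio relative to the autosomal median (points) with quartiles (shading) in 10 equal parts of chromosomes II to V, from the end with the pairing centre (1) to the opposite end (10), in males and hermaphrodites; vertical lines mark the limits between arms and centre. PMW123 forms a trough in the centre, at -1.19 in males and -0.89 in hermaphrodites in the sixth part, with both ends above 0, and PMW179 stays between -0.25 and 0.27.

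PMW179 was close to the autosomal median on these arms, slightly below it. The median ratio over the arm bins was 0.924 in males and 1.12 in hermaphrodites, with quartiles of 0.722 and 1.22 in males and of 0.889 and 1.47 in hermaphrodites. The level relative to the autosomes was -0.085 (log2, 0.943-fold) in males and -0.10 (0.932-fold) in hermaphrodites. Above the autosomal median were 98 of 224 arm bins in males (43.8%, against 56.5% of all nuclear bins, a share that includes X, and 49.9% of autosomal bins) and 97 of 219 in hermaphrodites (44.3%, against 47.2% of all nuclear and 50.0% of autosomal bins). At least 2-fold above it were 11 bins in each sex (4.91% in males, against 10.3% of all nuclear bins but 4.01% of autosomal ones, and 5.02% in hermaphrodites, against 6.35% of all nuclear and 6.99% of autosomal bins). At least 2-fold below it were 16 bins in males (7.14%, against 4.42% of all nuclear and 4.98% of autosomal bins) and 11 in hermaphrodites (5.02%, against 2.62% and 2.57%).

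By arm, the PMW179 levels in males were 0.086 on II, -0.12 on III, -0.10 on IV and -0.11 on V. In hermaphrodites they were -0.31 on II, -0.10 on III, -0.049 on IV and -0.011 on V. The left arm of II thus differed most between the sexes, with ratios from 0.295 to 2.78 and a median of 1.04 in males, and from 0.432 to 4.91 and a median of 0.970 in hermaphrodites, where the median of all autosomal bins was higher. Its bins below the autosomal median by at least 2-fold numbered 3 in males and 7 in hermaphrodites, and those 7 are most of the 11 found on the 4 arms in hermaphrodites. Between 2 and 3 Mb from its end the hermaphrodite level was -0.67, with 1 of 10 bins above the autosomal median, and on III that between 3 and 4 Mb was -0.62.

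Against the opposite arms, PMW179 was lower on the arms assigned the pairing centre on 4 of 4 chromosomes in males. The mean difference was -0.13 (log2, 0.912-fold). The values were -0.0037 on II, -0.27 on III, -0.10 on IV and -0.16 on V. With arms of 1 in 4 parts III had -0.50. In hermaphrodites the mean was -0.071, with 3 chromosomes below 0 and V at 0.0064. In males the outermost 2 Mb had levels of -0.062 and 0.011 at the pairing centre end and of 0.19 and 0.28 at the opposite end.

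Against the centres, PMW179 gave different values in the sexes, and this contrast was not tested. In hermaphrodites the arms with the pairing centre were lower than the centre on 4 of 4 chromosomes, by a mean of -0.30 (log2, 0.815-fold), with values from -0.51 on II to -0.15 on V. The opposite arms were also lower than the centre on each chromosome in hermaphrodites. Their levels were -0.086 on II, -0.090 on III, 0.0024 on IV and -0.018 on V, against 0.20, 0.21, 0.16 and 0.14 in the centres. In males the mean for the arms with the pairing centre was -0.0070, with II at 0.21, V at 0.0038, III at -0.12 and IV at -0.12. Along the arm, the hermaphrodite level was -0.24 in the outermost 1 Mb, where 12 of 39 bins lay above the autosomal median, and 0.043 between 4 and 5 Mb. In males the blocks from the end to 6 Mb ranged from -0.20 to 0.03 without an order.

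The bins of these arms kept their PMW123 values between the sexes to a moderate degree. The 2 sexes have separate PMW124 denominators. Over 219 bins with a finite ratio in both sexes, Pearson r was 0.59 and Spearman rho 0.55 on the log2 scale, across bins of 1 ratio each, which are not independent. Of these bins 126 lay above the autosomal median in both sexes (against 34.2% of all nuclear bins), 38 in neither, 34 in males only and 21 in hermaphrodites only. At least 2-fold above it in both sexes were 28 bins, which is 54.9% of the 51 such bins in males and 51.9% of the 54 in hermaphrodites. Over all autosomal bins, those shared by both sexes were 50% of such bins in males and 44.1% in hermaphrodites. On the opposite arms these shares were 54.2% in males and 46.4% in hermaphrodites. Over all nuclear bins 6.4% passed in both sexes.

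By arm, r for PMW123 was 0.71 on II, 0.62 on III, 0.44 on IV and 0.53 on V. On IV, where r was lowest, 10 of 58 bins were at least 2-fold higher in males relative to the autosomal difference (17.2%, against 8.53% of all nuclear bins), more than on any of the other 3 arms. On III none of the 3 bins at least 2-fold above the autosomal median in males was among the 4 in hermaphrodites. These counts are too small to set III apart. Over all autosomal bins 60 of the 120 such bins in males also passed in hermaphrodites. The opposite arms had r = 0.65 over 222 bins, and all autosomal bins had r = 0.67 over 816 bins.

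For PMW179 the same bins had r = 0.14 and rho = 0.07 over 219 bins, and 42 lay above the autosomal median in both sexes (against 25.9% of all nuclear bins), with 69 in neither. At least 2-fold above it in both sexes were 3 of the 219 bins (against 0.609% of all nuclear bins), which is 27.3% of the 11 such bins in males and 27.3% of the 11 in hermaphrodites. Over all autosomal bins these shares were 18.2% in males and 10.5% in hermaphrodites, and on the opposite arms 28.6% and 10.5%. By arm, r was 0.32 on II, 0.31 on III, 0.08 on IV and -0.10 on V. The opposite arms had r = -0.016, and all autosomal bins had r = 0.03.

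**Figure D4:**
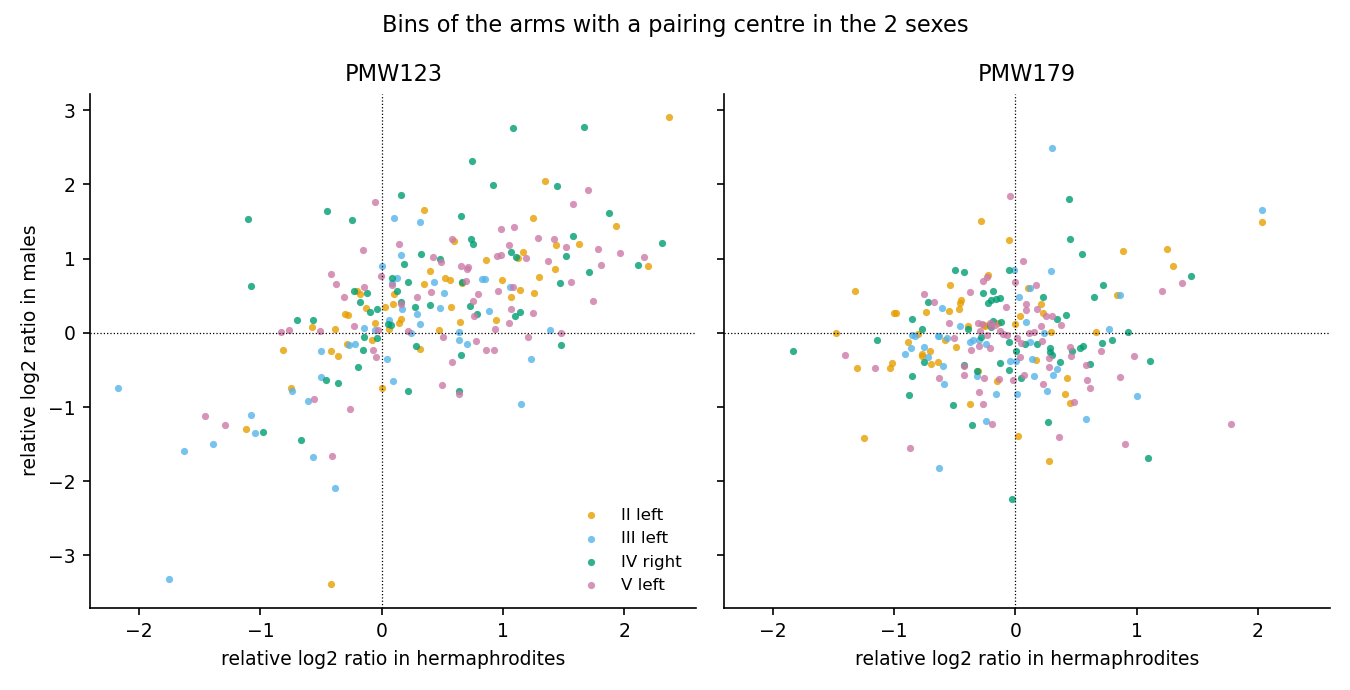
Log2 ratio of each bin of the arms with a pairing centre relative to the autosomal median, in males (vertical) against hermaphrodites (horizontal), coloured by chromosome. PMW123 bins spread along the diagonal (r = 0.59) and lie mostly above 0 in both sexes, whereas PMW179 bins form a cloud around 0 (r = 0.14).

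The difference between the sexes on these arms was small in the median. Taken bin by bin as males minus hermaphrodites in log2, and relative to the same difference over all autosomal bins, it was 0.087 for PMW123 (1.06-fold) and 0.058 for PMW179 (1.04-fold). Above the autosomal difference were 124 of 219 bins for PMW123 (56.6%, against 48.7% of all nuclear bins) and 114 of 219 for PMW179 (52.1%, against 56.5% of all nuclear bins, which include X, but 49.9% of autosomal ones). For PMW123 it ranged from 0.00065 on III to 0.16 on IV. At least 2-fold higher in males were 19 PMW123 bins (8.68%, against 8.53% of all nuclear and 7.84% of autosomal bins). At least 2-fold lower in males were 21 PMW123 bins (9.59%, against 14.8% of all nuclear and 13.5% of autosomal bins).

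For PMW179 the sex difference was 0.33 on II, 0.073 on III, -0.082 on IV and -0.086 on V, and without II the value over the other 3 arms was -0.080. At least 2-fold higher in males were 20 bins (9.13%, against 13.5% of all nuclear bins, which include X, but 7.24% of autosomal ones), and 24 were at least 2-fold lower (11.0%, against 11.1% of all nuclear and 12.6% of autosomal bins). The centres of the same chromosomes had -0.22 for PMW123 and -0.28 for PMW179, and the opposite arms had 0.018 for PMW123 and 0.20 for PMW179.

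Single bins are given without a replicate check, and bins listed as 0, infinite or without a value are left out of the rankings. The only arm bin listed as 0 is chr III 1700001 to 1800000 for PMW179 in males, in the authors' deposited table. In the authors' deposited table the bin at chr II 700001 to 800000, the eighth from the left end, was high in all 4 columns, with 8.22 for PMW123 in males, 5.40 for PMW123 in hermaphrodites, 2.76 for PMW179 in males and 4.91 for PMW179 in hermaphrodites. It was the highest of the arm bins for PMW123 in both sexes. The next highest for PMW123 in males were 7.47 at chr IV 15400001 to 15500000 and 7.39 at chr IV 16500001 to 16600000 in the authors' deposited table, and these had 3.33 and 2.21 in hermaphrodites. For hermaphrodites the authors' deposited table gives as next highest 5.21 at chr IV 15300001 to 15400000 and 4.80 at chr II 2000001 to 2100000, with 2.54 and 2.04 in males.

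The lowest PMW123 ratios on these arms lay at their inner limits, apart from 1 bin on III. In the authors' deposited table they were 0.104 at chr II 4900001 to 5000000, 0.110 at chr III 4500001 to 4600000 and 0.256 at chr III 4300001 to 4400000 in males, where hermaphrodites had 0.784, 0.311 and 0.803. In hermaphrodites the authors' deposited table has 0.232 at chr III 3300001 to 3400000, then 0.311 at the innermost bin of III and 0.338 at chr III 4200001 to 4300000, and males had 0.651, 0.110 and 0.363 there. All 3 of the lowest in hermaphrodites are thus on the left arm of III. The bin at chr III 4300001 to 4400000 was low for PMW123 but high for PMW179, with 3.08 in males and 4.92 in hermaphrodites in the authors' deposited table. That hermaphrodite value was the highest PMW179 ratio of these arms in that sex.

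Other high PMW179 bins differed between the sexes. In the authors' deposited table the highest in males were 5.51 at chr III 1600001 to 1700000, 3.53 at chr V 6600001 to 6700000 and 3.42 at chr IV 16400001 to 16500000, where hermaphrodites had 1.49, 1.17 and 1.64. In hermaphrodites the highest after chr III 4300001 to 4400000 and chr II 700001 to 800000 was 4.13 at chr V 1700001 to 1800000, where the authors' deposited table has 0.418 for males. The lowest above 0 in males were 0.104 at chr V 900001 to 1000000, which is listed as infinite in hermaphrodites, 0.207 at chr IV 15600001 to 15700000 and 0.278 at chr III 3800001 to 3900000. For hermaphrodites the authors' deposited table gives as lowest 0.339 at chr IV 15200001 to 15300000, 0.432 at chr II 4200001 to 4300000 and 0.454 at chr V 2600001 to 2700000, with 0.825, 0.980 and 0.794 in males.

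Among bins with a finite ratio in both sexes, PMW123 was most above the hermaphrodite value in males at chr IV 15200001 to 15300000 (3.16 in males and 0.489 in hermaphrodites, 6.47-fold), chr IV 14400001 to 14500000 (4.47-fold) and chr V 6600001 to 6700000 (3.66-fold), by the authors' deposited table. It was most below it at chr II 4900001 to 5000000 (0.133-fold), chr III 2400001 to 2500000 (0.243-fold) and chr III 4300001 to 4400000 (0.319-fold). For PMW179 the highest such ratios were 3.70-fold at chr III 1600001 to 1700000, 3.03-fold at chr V 6600001 to 6700000 and 3.01-fold at chr II 3000001 to 3100000. The lowest were 0.101-fold at chr V 1700001 to 1800000, 0.119-fold at chr IV 17200001 to 17300000 and 0.155-fold at chr V 200001 to 300000. The bin at chr V 6600001 to 6700000 was thus higher in males for both strains, which share the denominator of each sex.

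At the chromosome ends themselves the arms differed. In the authors' deposited table the outermost bin of IV had 3.36 for PMW123 in males and 3.83 in hermaphrodites, and for PMW179 it had 1.66 in males and 3.29 in hermaphrodites. The outermost bins of II, III and V were lower for PMW123, with 0.930, 0.855 and 0.929 in males and 0.595, 1.08 and 1.99 in hermaphrodites in the authors' deposited table. For PMW179 these 3 bins had 2.78, 0.933 and 0.586 in males and 0.987, 0.816 and 1.84 in hermaphrodites.

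At the inner limit of the arms the PMW123 ratios of the innermost bins on II, III, IV and V were 0.652, 0.110, 0.431 and 1.47 in males and 1.05, 0.311, 0.530 and 1.76 in hermaphrodites, in the authors' deposited table. The next bins, just outside the arms, had 1.17, 0.406, 0.407 and 1.48 in males and 0.791, 0.425, 0.714 and 0.766 in hermaphrodites. For PMW179 the innermost bins had 2.15, 0.696, 0.691 and 0.855 in males and 2.87, 1.53, 1.16 and 1.04 in hermaphrodites, and the next bins 0.627, 1.01, 1.16 and 0.659 in males and 0.695, 1.31, 1.59 and 0.916 in hermaphrodites. Neither strain showed a step in one direction at this limit on all 4 chromosomes.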

How the data were processed

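DamID was sequenced from whole L4 animals of both sexes. The submitters' processing notes name cutadapt, Bowtie, SAMtools and the genome build ce10. Versions and settings of these were not given in the sources at hand. What the authors deposited is a linear ratio per 100 kb bin, over PMW124. How libraries were pooled and scaled for it is not described in the labels and could change every level. A second deposited table holds 12 columns of read counts named by strain code, sex and number. The labels hold none of these codes, so the columns match no sample and were not used, and the count model written for them was not fitted. Only that table's bin order was read. Read depth was therefore not examined, and no counting interval is printed.

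The log2 of each ratio was taken with no pseudocount, leaving out bins listed as NA, infinite or 0. Levels are medians over bins minus the median of all autosomal bins. Arm contrasts were taken per chromosome and averaged over 4 chromosomes. Bins named are the 3 highest and 3 lowest per strain and sex and per sex difference, and those at both limits of each arm. Bins "at least 2-fold" above or below are counted relative to the autosomal median, beside the share among all nuclear bins. The alternatives were arms of 1 in 4 parts, infinite and 0 bins kept, means, each chromosome left out and the outermost 5 bins left out. The limits of the arms used bin position alone, but the arms, contrasts and lists were chosen with earlier results of these data known. The contrasts of the arms with the opposite arms and with the centres were tested on simulated data, and the other calculations were not. Python 3.11.15, numpy 2.4.6, pandas 2.3.3, scipy 1.17.1 and matplotlib 3.10.9 were used.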

Additional observations from a re-analysis of the deposited data

Results flagged for a closer look

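Single arms whose value had opposite signs in the sexes are listed here, and none of these contrasts between sexes was tested. For PMW123 the level of the left arm of III was -0.046 (log2) in males and 0.096 in hermaphrodites, and its difference from the opposite arm was -0.25 in males and 0.12 in hermaphrodites. On IV the PMW123 difference from the opposite arm was 0.43 in males and -0.16 in hermaphrodites. For PMW179 the level of the left arm of II was 0.086 in males and -0.31 in hermaphrodites, and its difference from the centre was 0.21 in males and -0.51 in hermaphrodites. On V the PMW179 difference from the opposite arm was -0.16 in males and 0.0064 in hermaphrodites, and that from the centre was 0.0038 in males and -0.15 in hermaphrodites. Several of these values are close to 0, and some changed sign with the processing, as given below.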

How the results depend on the processing

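The 14 summary values over the arms were recomputed under 8 alternatives. Of 112 values, 105 kept their sign, and the remaining 7 belonged to contrasts near 0. For the arms minus the opposite arms, PMW123 was -0.024 in males and -0.070 in hermaphrodites without chromosome II, -0.0013 in males without IV, and -0.0021 in hermaphrodites with means over bins. For the arms minus the centres, PMW179 in males was 0.032 without III and 0.030 without IV. The sex difference of PMW179 was -0.080 without II. Values moved by less than the spread over the 4 chromosomes in the other cases. The level of PMW123 ranged from 0.33 to 0.57 in males and from 0.22 to 0.57 in hermaphrodites.

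Of 64 shares of arm bins at least 2-fold above or below the autosomal median, 5 changed by over 1.5 times, all of them shares below it. For PMW123 the share was 0.599% in males and 1.24% in hermaphrodites with arms of 1 in 4 parts, and 4.47% in males and 2.82% in hermaphrodites without III. For PMW179 in hermaphrodites it was 2.38% without II.

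Among 224 values of single arms, 18 changed sign and 7 more moved by over the spread over the 4 chromosomes. Of the 7, with arms of 1 in 4 parts, the PMW123 level on IV in hermaphrodites was 0.63, its difference from the centre on II in males 1.45, its sex differences 0.083 on III and 0.17 on V, and the PMW179 difference from the opposite arm -0.50 on III in males and -0.16 on IV in hermaphrodites. With means the PMW123 sex difference on IV was 0.36. The sign changes with arms of 1 in 4 parts were the PMW123 level on III in males (0.12), the PMW123 difference from the opposite arm on IV in hermaphrodites (0.14), the PMW179 differences on V from the centre in males (-0.13) and from the opposite arm in hermaphrodites (-0.041), and the PMW179 sex difference on IV (0.22). With infinite and 0 bins kept they were the PMW179 differences from the opposite arm in hermaphrodites on III (0.087) and V (-0.014), the PMW123 sex differences on III (-0.014) and V (-0.045), and the PMW179 sex difference on III (-0.16). With means they were the PMW123 level on III (-0.048) and its difference from the opposite arm (-0.10) in hermaphrodites, the PMW179 difference from the centre on V in males (-0.079), and the sex differences of PMW123 on III (-0.0036) and of PMW179 on IV (0.021). With the outermost 5 bins left out they were the PMW179 difference from the centre on V in males (-0.010), that from the opposite arm on III in hermaphrodites (0.027) and the PMW123 sex difference on V (-0.062). The cause was not tested.

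The alternatives planned for read counts were not run. No paired analysis was made. The ratio table carries no replicate number, and the numbered count columns, which match no labelled sample, were not used.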
